A study of Mus musculus with 5 samples.

Results

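Lef1, Tcf7, Tcf7l1, Tcf7l2, Sox4, Ctnnb1 and Axin2 are 7 genes of Wnt signalling or, for Sox4, of the SOX family, chosen by name from 21887 protein-coding genes. The mark mapped over them was H3K27ac, a histone acetylation found at active promoters and enhancers, by ChIPmentation, in which the Tn5 transposase adds sequencing adapters to immunoprecipitated chromatin. The cells were mouse bone marrow cells sorted as CD45.2+, lineage-negative, Sca1+ and Kit+, which the labels call HSC/MPP (stem cells and multipotent progenitors of blood), and every library carried the genotype Mll3/4 deleted. Mll3 and Mll4 are histone methyltransferases that act mainly at enhancers. How and when they were deleted, and the age of the mice, are not given in the sources used here. The 4 H3K27ac libraries and 1 input library, all of this genotype, lead to 1 list of 22948 peaks with no value for a single library. There is thus no control genotype, no replicate error and no test between samples, and each value below is a description of this list.

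Wnt ligands bind Frizzled receptors and stop a destruction complex, built on Axin scaffolds, from degrading beta-catenin, the product of Ctnnb1. Beta-catenin then enters the nucleus and joins the 4 TCF/LEF proteins, which bind DNA through an HMG box and otherwise hold target genes silent with TLE corepressors. Lef1 and Tcf7 are the family members best known from lymphocytes: Lef1 acts in early B and T cells, and Tcf7, which encodes TCF-1, in early T cells and innate lymphoid cells. Tcf7l1 and Tcf7l2 are better known from stem cells and epithelia. Sox4 is an HMG-box factor of the SOX family needed for B-cell development, and Axin2 is both a scaffold of the destruction complex and a widely used target gene of the pathway.

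The peaks divided the 7 genes. Sox4 and Lef1 had strong peaks at their starts and further peaks at a distance, Tcf7l1, Tcf7l2 and Ctnnb1 had weaker peaks at their starts, and Tcf7 (chromosome 11, 52246527 to 52283383) and Axin2 (chromosome 11, 108917828 to 108950783) had no peak at an end or in the gene. The split did not follow the division into lymphoid and other TCF/LEF factors. Counting only peaks at an end or in the gene, Lef1 had the strongest of the 4, while Tcf7, the other lymphoid factor, had none.

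The starts of the TCF/LEF genes are printed here because they carry this contrast. Each sequence is the RefSeq window (GRCm38.p6) from 250 bases before to 50 bases after an annotated start, given 5′ to 3′ on the gene's strand. The Tcf7 window lies wholly inside the gene, because its first annotated start is 52283014 and its outer 5′ end is 52283383. Capitals mark matches on either strand to CTTTGA, the core of TCF/LEF sites, or to AACAAT, a core bound by SOX factors; no match overlapped another.

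Lef1 first start, beside a strong peak (chr3:131110047-131110346, + strand): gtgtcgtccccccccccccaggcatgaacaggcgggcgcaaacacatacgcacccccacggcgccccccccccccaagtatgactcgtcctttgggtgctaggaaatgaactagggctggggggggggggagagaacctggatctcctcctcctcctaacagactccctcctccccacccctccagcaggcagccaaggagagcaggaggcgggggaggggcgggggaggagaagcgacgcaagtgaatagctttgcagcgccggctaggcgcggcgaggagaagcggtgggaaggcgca
Lef1 start at 46.0 kb, inside a peak (chr3:131156044-131156343, + strand): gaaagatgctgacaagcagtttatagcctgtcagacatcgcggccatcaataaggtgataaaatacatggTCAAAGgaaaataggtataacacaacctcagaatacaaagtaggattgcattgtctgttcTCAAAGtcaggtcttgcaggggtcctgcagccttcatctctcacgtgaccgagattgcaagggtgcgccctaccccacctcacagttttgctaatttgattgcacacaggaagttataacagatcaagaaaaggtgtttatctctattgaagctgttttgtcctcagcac
Tcf7 first start, no peak (chr11:52282965-52283264, - strand): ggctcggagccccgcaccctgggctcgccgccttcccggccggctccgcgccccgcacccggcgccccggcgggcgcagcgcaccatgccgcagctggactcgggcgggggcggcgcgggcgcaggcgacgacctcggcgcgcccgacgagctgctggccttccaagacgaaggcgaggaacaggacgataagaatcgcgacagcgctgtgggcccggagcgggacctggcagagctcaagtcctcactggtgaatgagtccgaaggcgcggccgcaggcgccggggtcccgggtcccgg
Tcf7l1 start, weak peak downstream (chr6:72788996-72789295, - strand): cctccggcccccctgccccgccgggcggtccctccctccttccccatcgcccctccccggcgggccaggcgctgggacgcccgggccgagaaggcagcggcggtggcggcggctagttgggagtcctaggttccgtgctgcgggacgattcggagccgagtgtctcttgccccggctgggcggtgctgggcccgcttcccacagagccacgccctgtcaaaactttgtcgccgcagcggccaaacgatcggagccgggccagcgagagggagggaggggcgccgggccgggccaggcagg
Tcf7l2 first start, between peaks (chr19:55741560-55741859, + strand): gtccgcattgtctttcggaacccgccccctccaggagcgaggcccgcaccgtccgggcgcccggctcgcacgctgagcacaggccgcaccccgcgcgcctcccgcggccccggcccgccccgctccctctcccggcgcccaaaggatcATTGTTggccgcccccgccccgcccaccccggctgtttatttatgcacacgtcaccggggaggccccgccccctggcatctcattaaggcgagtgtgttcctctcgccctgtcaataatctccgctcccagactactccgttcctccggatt

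Of the 13 annotated starts of the 7 genes, only 1, the Lef1 start 46.0 kb into the gene, held CTTTGA, and it held it 2 times (TCAAAG as printed). Over the 21263 starts of protein-coding genes in the table, 14.4% held CTTTGA and 1.44% held it at least 2 times. AACAAT was found at 1 of the 13 starts, the first start of Tcf7l2 (ATTGTT as printed), against 9.05% of all starts. These matches describe letters in a window and do not show binding.

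The first annotated start of Tcf7, at 52283014 and inside its outer end at 52283383, had 45 CG dinucleotides in its 300 bases. That of Axin2, at 108920349 and inside its outer end at 108917828, had 31. Both therefore belonged to the CpG-rich starts, those with over 50% G and C and a ratio of observed to expected CG above 0.6. In the peak list, 61.7% of 9548 CpG-rich starts had a peak within 1 kb, against 17.7% of the other starts. The second start of Tcf7 was not CpG-rich (ratio 0.55) and had no peak within 1 kb either. The Lef1 starts at 2.49 and 46.0 kb were opposite cases, not CpG-rich but inside a peak. They had 8 and 5 CG dinucleotides and 51.7% and 43.7% G and C.

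Peaks reaching within 1 kb of a gene's low or high end, on either side, were counted as end peaks. Of the 7 genes, 5 had one, against 36.2% of all protein-coding genes. Peak strength is given as the signal value, the authors' enrichment ratio over background, whose median over the list was 3.27 (interquartile range 2.69 to 4.62). Among the genes with a peak at an end, the strongest such peak had a median signal value of 4.71 (interquartile range 3.52 to 6.55).

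Sox4 had the highest signal value at an end, 8.23, above that of 86.8% of the genes with such a peak. This peak, on chromosome 13 from 28949183 to 28953657, was 4475 bp wide and covered 93.6% of the 4.8 kb gene. Lef1 followed with a signal value of 8.02, above 85.7% of these genes, for a peak of 4999 bp on chromosome 3 from 131110365 to 131115363. Both peaks were thus above the upper quartile of end peaks and had nearly equal values, and no replicate error is available to separate them. This holds for peaks counted by overlap. The Lef1 peak had its summit over 1 kb into the gene, while the Sox4 summit lay within 1 kb of the gene's end. By summit, Lef1 kept only 1 end peak, with a signal value of 3.18. That value is below the lower quartile of end peaks counted by overlap (3.52).

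The other 3 genes with a peak were near or below the middle of that distribution. The strongest peak at the start of Tcf7l2, on chromosome 19 from 55742358 to 55743133, reached a signal value of 4.56, above 47.0% of the genes with an end peak. For Ctnnb1 the value was 3.85, above 32.7%, for a peak on chromosome 9 from 120934221 to 120935275. Its summit lay 1.66 kb into the gene, and by summit Ctnnb1 kept only 1 end peak, with a signal value of 2.72. Tcf7l1 had 1 peak at its start, on chromosome 6 from 72788173 to 72788745, with a signal value of 2.51, above 3.1% of these genes. Its q-value was 0.0452, and its signal value was above that of 15.7% of all peaks on the list. With only peaks of −log10 q of at least 5, Sox4, Lef1 and Tcf7l2 kept a peak at an end, and 24.0% of all genes did.

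The peaks sat beside the starts more often than on them. Of the 13 starts of the 7 genes, 9 had a peak within 1 kb, against 37.4% of all starts. These starts are not separate units. The second start lies 0.03 kb after the first in Lef1 and 0.18 kb after it in Ctnnb1, with the same peaks nearby. Of the 9, 2 lay inside a peak, and both were internal starts of Lef1. Over all starts with a peak within 1 kb, 50.8% lay inside one, and the strongest summit was downstream of the start in 68.8%. At the first start of Lef1, one peak ended 596 bp upstream and the strong peak began 68 bp downstream. The printed window of that start therefore held no base of a peak.

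Tcf7l2 had the same layout, with a peak ending 242 bp before its first start and the next beginning 548 bp after it. The Sox4 peak began 42 bp downstream of the start and ran through the gene. At Tcf7l1 and at the first start of Ctnnb1, peaks lay downstream only and began 300 bp and 290 bp into the gene. These 5 genes thus had peaks on the transcribed side of their first start, and Lef1 and Tcf7l2 had one on the upstream side as well.

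**Figure D1:**
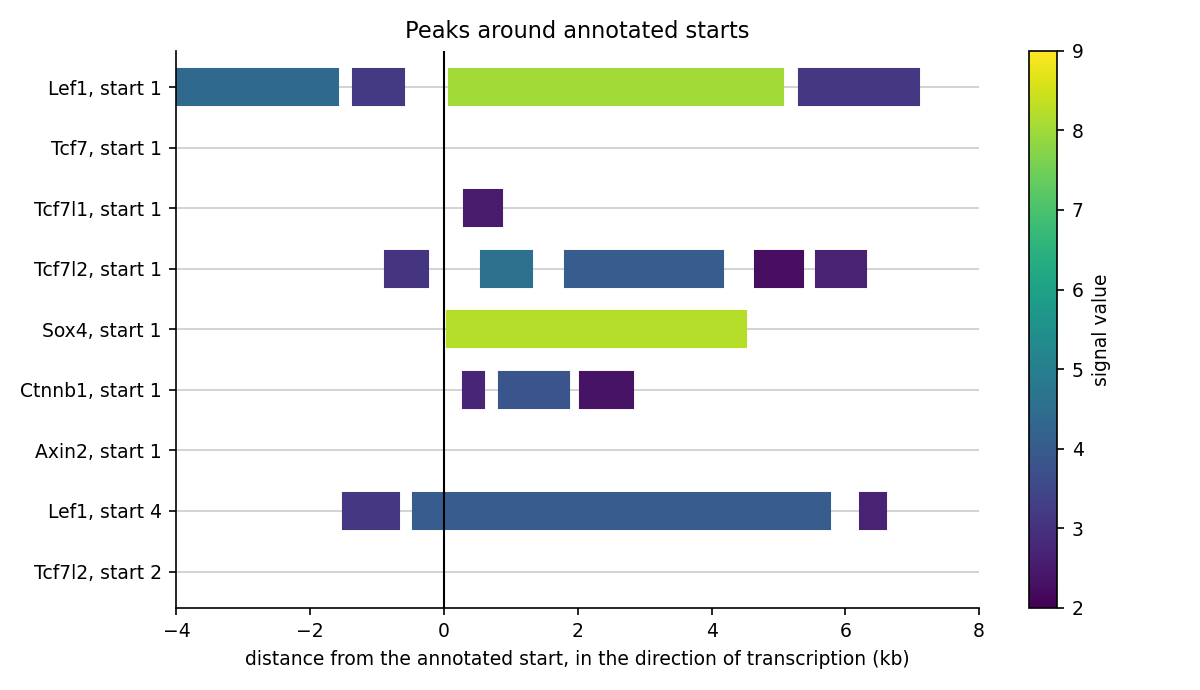
Extent of each peak (bars, coloured by signal value) around the first annotated start of each gene and around the last annotated starts of Lef1 (start 4) and Tcf7l2 (start 2), in kb in the direction of transcription. The strong peaks of Lef1 (8.02) and Sox4 (8.23) begin just downstream of the first start, Lef1 start 4 lies inside a peak, and the rows of Tcf7, Axin2 and the internal Tcf7l2 start are empty.

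Internal starts also differed between Lef1 and Tcf7l2. The fourth annotated start of Lef1, 46.0 kb into the gene, lay inside a 6231 bp peak (chromosome 3, 131155829 to 131162059), whose signal value was 4.03. Weaker peaks flanked it on both sides, with signal values of 3.12 and 2.66. The internal start of Tcf7l2, 153.5 kb into that gene, had no peak within 1 kb, and the nearest peak edge was 19070 bp downstream. LEF1 is known to have an internal promoter that gives a short protein unable to bind beta-catenin. The list does not show which start was transcribed.

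Body peaks were those with a summit inside the gene and over 1 kb from both ends. They were found in 4 of the 7 genes, 27 peaks in all, against 18.4% of all protein-coding genes with at least 1. Lef1 had 11, one of which, the strong peak at the start, was also counted at the end. Tcf7l1 and Tcf7l2 had 7 each and Ctnnb1 had 2.

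Longer genes can hold more peaks, so the 3 long TCF/LEF genes were set beside the 1439 protein-coding genes of 100 to 200 kb. The median of these was 0 body peaks, and only 50.03% of them had none. Lef1 is 114.1 kb long, and 3.61% of these genes had at least as many body peaks. For Tcf7l1 (162.7 kb) and Tcf7l2 (191.9 kb), with 7 each, the share was 7.71%. Per 100 kb this made 9.64 body peaks in Lef1, 4.30 in Tcf7l1 and 3.65 in Tcf7l2. The order in number rested on weak and closely spaced peaks. With −log10 q of at least 5, each of the 3 genes kept 2 body peaks. With peaks within 1 kb of each other merged, Lef1 and Tcf7l1 had 6 each and Tcf7l2 had 3.

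**Figure D2:**
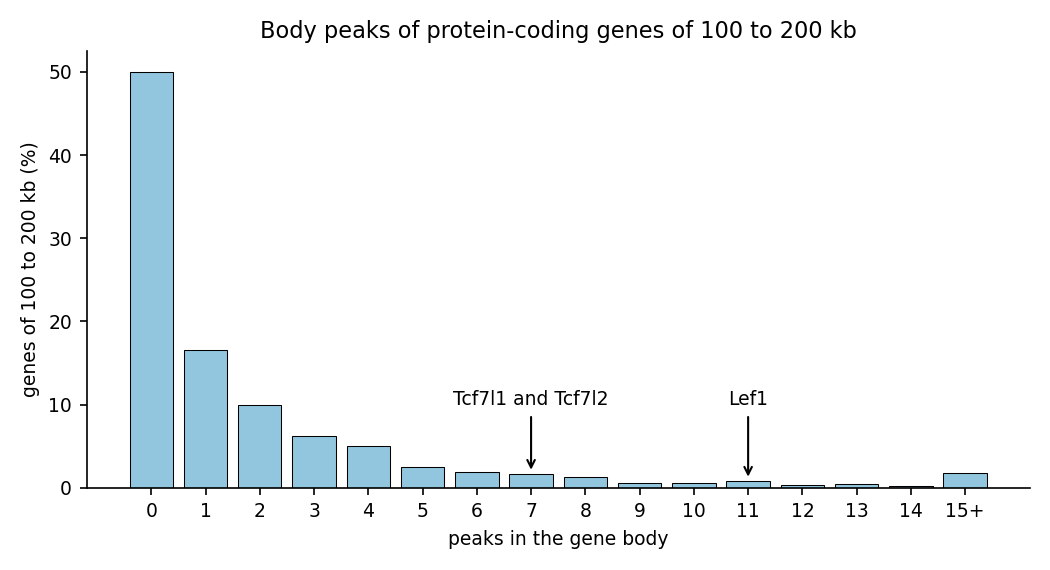
Share of the 1439 protein-coding genes of 100 to 200 kb (vertical axis, percent) by their number of body peaks (horizontal axis, with 15 or more joined). Lef1, at 11, and Tcf7l1 and Tcf7l2, at 7 each, lie in the thin right tail, while the median gene has 0.

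The length of gene under peaks gave the same order with less dependence on weak peaks. Peaks covered 15.06% of Lef1, 9.62% of Tcf7l1 and 4.67% of Tcf7l2, against a median of 0.55% and an upper quartile of 2.23% over genes of that length. Of the 1439 genes, 21 had a larger covered share than Lef1, 57 than Tcf7l1 and 157 than Tcf7l2. With −log10 q of at least 5 the shares were 9.85%, 7.21% and 2.27%.

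The 3 genes also differed in where the body peaks lay. In Tcf7l1 the strongest acetylation was far inside the gene. A 7772 bp peak on chromosome 6 from 72742884 to 72750655, with its summit 43.5 kb from the start, had a signal value of 5.60, and a 3959 bp peak from 72734293 to 72738251, at 52.7 kb, had 5.48. The peak at the start had 2.51. The wider of them lay over Gm31249, a long non-coding RNA gene within Tcf7l1, so it cannot be assigned to Tcf7l1 by position alone. All 7 body peaks of Tcf7l1 lay between 22.9 and 74.1 kb from the start, so each was nearer to the start than to the other end.

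In Lef1, by contrast, the peak at the first start was the strongest of the gene, and 7 of 11 body peaks lay nearer to the start than to the other end. Beyond the peaks at the first start and at the start 46.0 kb in, its body peaks had signal values from 2.38 to 3.12. In Tcf7l2, 4 of 7 body peaks were nearer to the start. They formed a run from 2.1 to 15.1 kb, and the strongest body peak (4.07) lay 17.9 kb before the end of the gene. In genes of 100 to 200 kb as a whole, 54.4% of 2189 body peaks were nearer to the start. The 2 body peaks of Ctnnb1, one of them also counted at its start, had summits 1.66 and 2.65 kb into the gene.

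Peaks outside the genes were counted when their summit lay over 1 kb and up to 100 kb from the nearer end. All 7 genes had at least 1, as did 72.2% of all protein-coding genes, so this count does not set them apart. The 30 peaks were unlike in their neighbours: 17 had the gene itself as the nearest protein-coding gene, and 13 were nearer to another.

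Sox4 had the most, 9, more than 92.8% of all genes, and it was the nearest protein-coding gene to each of them. This rank rested on weak peaks, since with −log10 q of at least 5 Sox4 kept 2 outside peaks and Lef1 kept 4. The strongest, on chromosome 13 from 28991143 to 28992610, lay 38.1 kb upstream of the start with a signal value of 7.13, above 91.6% of the list. A second group of 6 peaks lay 70 to 98 kb downstream of the start, with signal values from 2.35 to 4.62. Each had its summit in or within 1 kb of 2610307P16Rik, a long non-coding RNA gene. The widest of these was 5599 bp (28879697 to 28885295). The summit of the peak over Sox4 itself also lay in or within 1 kb of a non-coding gene, Gm46405. Whether Gm46405 overlaps that peak was not measured, and the peak calls carry no strand to tell the genes apart.

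Lef1 had 4 outside peaks, all upstream and all nearest to Lef1. One on chromosome 3 from 131018619 to 131020640, 90.9 kb upstream, reached a signal value of 7.01, above 91.3% of the list. A pair at 55.5 and 53.3 kb upstream had values of 4.51 and 5.14. The last, 3.7 kb upstream at the non-coding gene Gm36603, had 4.37. No peak was found within 100 kb beyond the 3′ end of Lef1.

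The outside peaks of the other TCF/LEF genes mostly belonged, by distance, to neighbours. All 3 peaks within 100 kb of Tcf7 were nearer to another gene. One was at Skp1, a ubiquitin ligase subunit gene whose end overlaps that of Tcf7, with a signal value of 9.67, and 2 were at Vdac1, a mitochondrial channel gene, with 4.08 and 3.99. The summit at Skp1 was the closest peak to Tcf7, 14.1 kb from its nearer end. That peak was stronger than 97.3% of the list, while the 36.9 kb of Tcf7 held no peak.

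Of the 7 peaks outside Tcf7l1, 3 were nearest to Capg, 2 to Kcmf1, 1 to Elmod3 and 1 to Tgoln1, whose peak of 10.8 was the strongest near any of the 7 genes. Tcf7l2 had 4, of which 2 were nearest to Vti1a, the stronger with a signal value of 6.51, and 2 were nearest to Tcf7l2 itself, with 3.27 and 2.05. Ctnnb1 had 2 weak peaks 67.0 and 67.5 kb upstream (2.94 and 2.90) at the non-coding gene Gm19385. Axin2 had 1 peak of 3.30, 71.2 kb upstream and nearest to Cep112.

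The 100 kb limit cut through the surroundings of some genes. The Tcf7l2 peak at 98.2 kb (6.51) was just inside it, and a Sox4 peak at 101.6 kb (2.51) was just outside. Within 200 kb, Sox4 had 24 peaks outside the gene, while Ctnnb1 and Axin2 gained none, with 2 and 1.

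**Figure D3:**
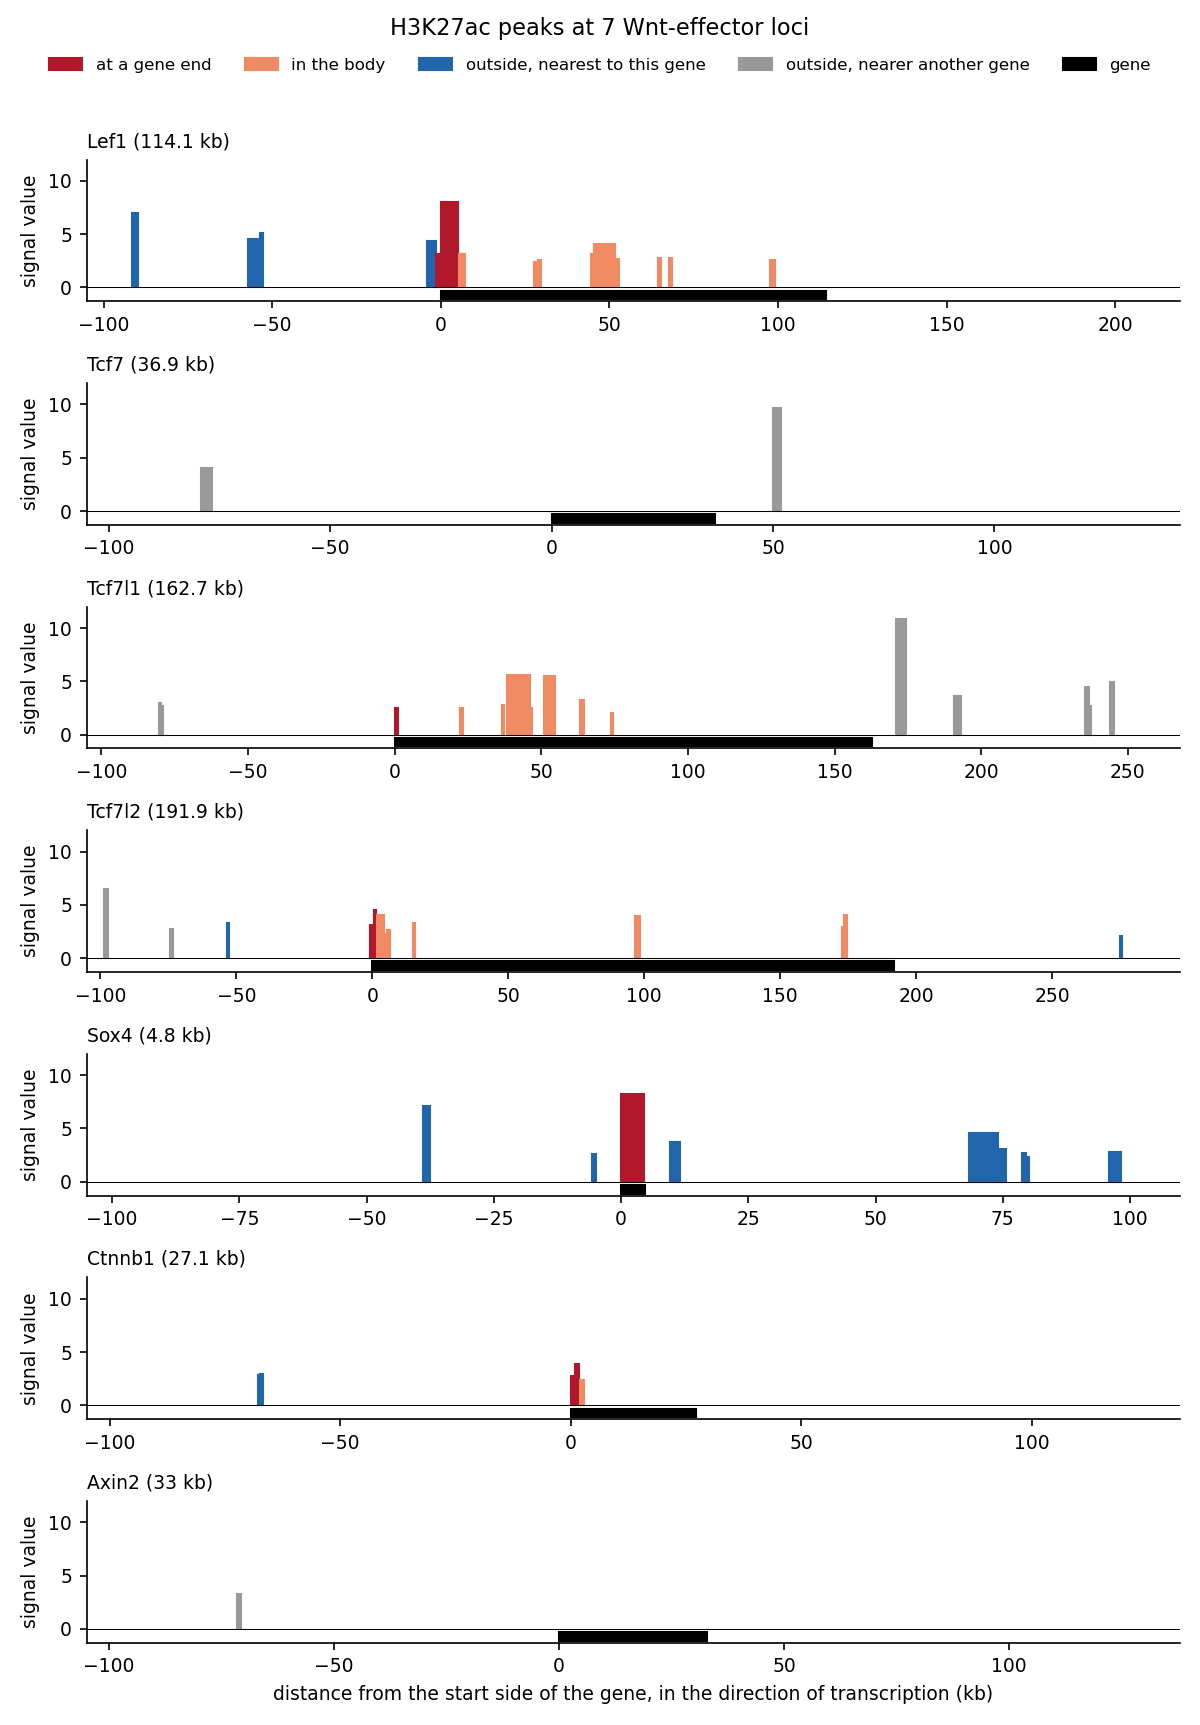
Peaks of the 7 genes by distance from the start side of the gene in the direction of transcription (horizontal axis, kb, to 100 kb beyond each end) and signal value (vertical axis). Bars span each peak, drawn at least 0.8 kb wide, coloured by whether the peak was at an end (including those also in the body), in the body, outside and nearest to the gene, or outside and nearer to another protein-coding gene, and the black bar is the gene. Around Lef1 and Sox4 every outside peak is nearest to the gene, and around Tcf7, Tcf7l1 and Axin2 none is.

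Set side by side, the lymphoid pair Lef1 and Tcf7 had 12 and 0 peaks at an end or in the body. The other pair, Tcf7l1 and Tcf7l2, had 8 and 9. The strongest of these peaks had signal values of 8.02 in Lef1, 5.60 in Tcf7l1 and 4.56 in Tcf7l2. These counts rested on weak peaks. With −log10 q of at least 5, an alternative chosen after seeing the data, they were 2 for Lef1 and 0 for Tcf7 beside 2 for Tcf7l1 and 3 for Tcf7l2. That a gene has no peak means only that none was called in it, not that the mark was missing. In genes of 25 to 40 kb, the range of Tcf7, Ctnnb1 and Axin2, 44.5% of 2629 had no peak at an end or in the body, as against 56.2% of all genes.

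Sox4 was next compared with 18 other SOX genes. Only 2 of them had a peak at an end, beside 36.2% of all genes. Sox5 had a signal value of 5.23 on chromosome 6 (144780502 to 144781930) and Sox12 one of 2.72 on chromosome 2 (152396651 to 152397599). At gene ends, Sox4 lay above both. Sox6 and Sox13 had 2 body peaks each and none at an end, and the stronger peak of Sox6 had a signal value of 10.3, above that of Sox4. Sox5 had 20 body peaks, in a gene of 953863 bp.

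The rest of the Wnt pathway was taken as 88 genes listed by role, of which 27 had a peak at an end, beside 36.2% of all genes. By role the counts were uneven. None of 19 Wnt ligand genes and none of 14 genes for inhibitors such as Dkk and Sfrp proteins had one. Of 18 receptor genes 3 did, with the highest signal value at Fzd6 (6.22). Body peaks without an end peak were found in the ligand gene Wnt5b, which had 5, the strongest with a signal value of 5.57. The receptor genes Fzd3 and Lgr5 had 1 and 2 such peaks.

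Several other roles had more. All 3 Dishevelled genes, which relay the receptor signal, had a peak, with signal values of 3.31 at Dvl1, 2.72 at Dvl2 and 3.36 at Dvl3, all with −log10 q below 5. A peak was also found at 5 of 8 destruction complex genes, led by the kinase gene Gsk3b (6.24, chromosome 16, 38087614 to 38088817). With −log10 q of at least 5, Gsk3b and Apc were the 2 of these 8 that kept one, beside 24.0% of all genes. Csnk1a1, another kinase gene of the complex, had 3.55 at an end but a stronger body peak of 11.9, the highest signal value at an end or in the body of the 88 genes. Coactivator genes had peaks in 5 of 6 cases, led by the acetyltransferase gene Ep300 (7.62, chromosome 15, 81585380 to 81587934).

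Among 10 corepressor genes, 7 had a peak. Tle4, a partner of TCF/LEF proteins in repression, had the highest signal value at an end among the 88 genes, 8.33 (chromosome 19, 14596404 to 14597978), and 9 body peaks. At that stricter limit on −log10 q, 5 of the 10 corepressor genes and 3 of the 6 coactivator genes kept a peak at an end. Tle5, which encodes a short TLE protein, had 6.40 (chromosome 10, 81558697 to 81560056). Of the genes for Wnt secretion, Wls had 7.99 (chromosome 3, 159839488 to 159843248) and Porcn 1.95, at −log10 q of 0.47.

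Of 4 partner genes of the catenins, Jup, Ctnna1, Ctnnbip1 and Cdh1, none had a peak at an end, though Ctnna1 had 3 body peaks and Ctnnbip1 had 1. Of 4 known target genes, Myc had a signal value of 4.44 at an end. Cd44 had one of 2.74 there and 10 body peaks, and its strongest peak had 7.38, while Ccnd1 and Sp5, like Axin2, had no peak at an end.

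**Figure D4:**
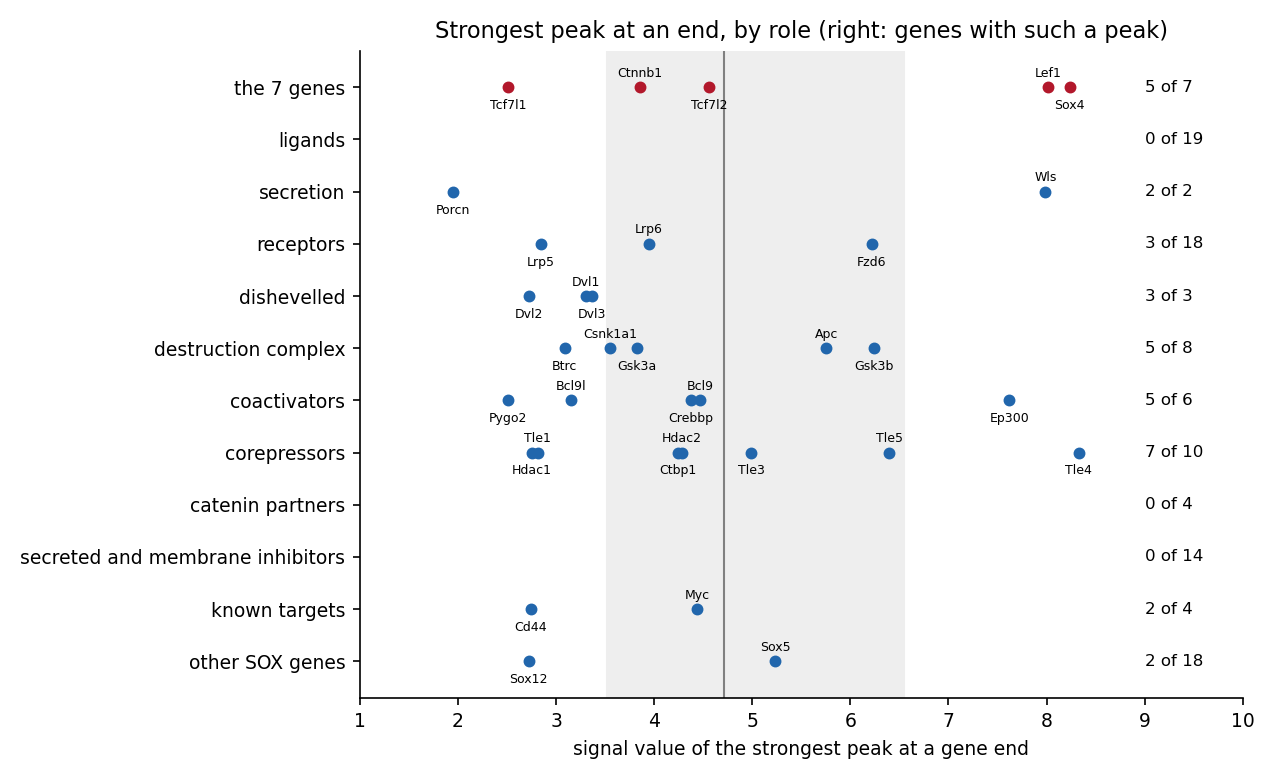
Signal value of the strongest peak at a gene end (horizontal axis) for each of the 7 genes (red) and for other Wnt pathway and SOX genes by role (blue), with the number of genes that had such a peak at the right. The grey line and band are the median (4.71) and interquartile range (3.52 to 6.55) of all genes with a peak at an end. Lef1 and Sox4 lie right of the band with Wls, Ep300 and Tle4, and the rows of ligands, inhibitors and catenin partners are empty.

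The labelled cell type was set beside marker genes by the same count. Beside 36.2% of all genes, 4 of 9 stem and progenitor markers had a peak at an end (Meis1, Ptprc, Flt3 and Kit, signal values 5.66 to 12.2), while Ly6a, which encodes Sca1, and Cd34, Mecom, Hlf and Procr had none. Of 10 B-cell markers 9 had one, with signal values from 2.69 at Cd79b to 13.6 at Blnk, and of 12 T-cell markers 2 did, Zap70 (7.002) and Cd3d (4.90). None of 8 myeloid, 8 erythroid and megakaryocyte or 8 stromal markers had one. Body peaks without an end peak were found in Mecom (2.57), in the T-cell markers Gata3 (strongest 5.94) and Lck (2.60) and in Pecam1, a stromal list gene for an adhesion protein of endothelial and blood cells, which had 3, the strongest with a signal value of 8.59. In a sorted sample, more cells of a type and more signal per cell cannot be told apart. The labels give the sort as lineage-negative, and the list does not show which cells it left. The part of B-lineage or T-lineage cells in the peaks at Lef1 and Sox4 was not tested.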

How the data were processed

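Per the submitters' processing notes, BWA, MACS2 and mm10 were used, with no versions or roles given. The name of the deposited list calls it an optimal overlap set of H3K27ac over input. Its thresholds and how the overlap was made are not given in the sources used here. The authors deposited 1 narrowPeak list without header. Its columns were read as the authors' score, the authors' signal value (an enrichment ratio, or fold, over background) and, as −log10, the authors' p-values and q-values. They served only to describe, rank or filter peaks. Total read depth is unknown, so no interval was computed.

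Gene positions, biotypes, annotated starts, strands and sequences came from RefSeq tables of GRCm38.p6, the build that mm10 names. All 7 genes matched by symbol in both tables, as did all 168 listed genes in the gene table. The start table held 17492 of 21887 protein-coding genes. It gives no exons, so exons, introns and UTRs were not assigned. Coordinates are 1-based. Distances to the outer end use the gene table, and distances to starts the start table.

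Peaks were joined to genes with Python 3.11.15 and pandas 2.3.3, checked on simulated peaks of known position. The named genes are the 7, the protein-coding genes nearer to an outside peak, the 5 highest signal values at an end in the Wnt list, both SOX genes with such a peak and every gene of roles with up to 4 genes. Wnt5b, Fzd3, Fzd6, Lgr5, Apc, Csnk1a1, Sox6, Sox13, the non-coding genes and the markers were named after their values were seen. The genes and lists were chosen with earlier results of these data known, and the length classes, the covered shares and the stricter counts of end and body peaks together were added after the peaks had been seen. Alternatives were stricter lists, a 2.5 kb window, summits in place of overlap, merged peaks, 50 kb and the nearest gene only. A planned comparison of protein sequences was not run, because protein sequences were not used here.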

Additional observations from a re-analysis of the deposited data

How the results depend on the processing

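When −log10 q had to reach 5, 3 of the 7 genes had a peak at an end, with 6 body peaks and 13 peaks within 100 kb, and 14 of 88 Wnt pathway genes and 1 of 18 other SOX genes had a peak at an end, beside 24.0% of all genes. With a signal value of at least 4 these counts were 3, 6, 12, 13 and 1, beside 23.2%. With only q-values up to 0.05 there were 17 body peaks, and merging peaks within 1 kb left 16. Peaks within 100 kb numbered 17 when held to the nearest gene and 7 with 50 kb. By summit in place of overlap, 1 other SOX gene had a peak at an end, beside 33.3% of all genes. Lef1 and Ctnnb1 then lost their strongest end peaks and kept 1 each, with signal values of 3.18 and 2.72. Of 25 recomputed counts over lists, 10 stayed within 1.5 times, as did 47 of the 107 values of single genes that were above 0 in the list as deposited. Of the 63 peaks of the 7 genes, 13 (20.6%) had a q-value above 0.05, against 21.2% of the whole list. No alternative could add a peak to Tcf7 or Axin2, whose closest peaks lay 14.1 and 71.2 kb away. No single library could be left out, since the values are those of the joined list. No paired analysis was possible because no column belongs to 1 replicate.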
